A study of Mus musculus with 6 samples.

Results

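This account covers Limch1, its paralog Lmo7 and the genes of non-muscle myosin II in 4T1 cells, a mouse mammary carcinoma line. The study compared 3 RNA sequencing libraries of cells with stable lentiviral expression of mouse LIMCH1 (Limch1_OE) with 3 libraries of cells carrying the empty vector (Vector). In both groups a PLVX-ires-neo construct was delivered by virus packaged in HEK293T cells, antibiotic selection started 48 h after infection, and the medium held 10% serum. The promoter driving the insert, and whether each line was a pool or a clone, are not given in the labels, nor do they tie the libraries of a group to separate cultures. The p-values then weigh the difference between groups against the spread of libraries within groups, which may be only technical. They need not hold for other cultures or lines. The members were taken by symbol from the mm10 annotation. They were Limch1, Lmo7, the heavy chains Myh9, Myh10 and Myh14, the essential light chain Myl6, and the regulatory light chains Myl9, Myl12a and Myl12b. Of these 9 symbols, 8 had values, under 9 gene identifiers with 72 transcripts, out of 26094 genes in all; Myl9 was not analysed here. The symbol Myl12b covers 2 identifiers, of which the second is a readthrough locus spanning Myl12a and Myl12b and is treated on its own.

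Non-muscle myosin II is the motor that pulls on actin filaments in most animal cells. Its heavy chains carry the motor head and the tail that forms filaments, the essential light chain stabilises the neck of the head, and phosphorylation of the regulatory light chain switches the motor on. Small GTPases such as RHOA act through ROCK kinases to raise this phosphorylation, and myosin phosphatase removes it. LIMCH1, which has a LIM domain and a calponin-homology domain, has been described in human cells as an activator of non-muscle myosin IIA. LMO7, its closest relative, has the same 2 kinds of domain and is found at cell junctions.

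The values are FPKM, fragment counts scaled to transcript length and library size, added up over each gene's transcripts, so levels can be compared between genes. Library totals were 421767 to 425064 FPKM in Limch1_OE, against 414837 to 416242 FPKM in Vector, and the number of reads behind them is unknown. A principal component analysis split the groups along component 1 (74.9% of the variance), while component 2 (8.98%) spread the Limch1_OE libraries, with replicate 1 at the far end. The 11842 genes that reached 1 FPKM in 3 or more libraries were tested by limma on log2(FPKM + 1), and a gene passed where its Benjamini-Hochberg adjusted p, taken over every tested gene, was under 0.05. All fold changes and all values called a change are log2 differences on that scale, Limch1_OE minus Vector. The epithelial markers were all present, with keratin 18 (Krt18) at 603 ± 40.9 FPKM in Limch1_OE, against 545 ± 10.6 FPKM in Vector (SD, n = 3 each). Epcam and Cdh1 were lower in Limch1_OE by 0.44 and 0.18 (limma adjusted p = 2.45e-04 and 0.0143), Krt7 was higher by 0.37 (adjusted p = 0.00315), and Krt8, Krt18 and Krt19 did not pass. The Krt7 call ended with coding transcripts alone (0.0792) and with the most abundant transcript standing for the gene (0.170). The Cdh1 call ended without Vector replicate 3 (0.0549), and Krt18 passed without Limch1_OE replicate 1 (0.0117). Of the 11 listed genes of the muscle list, 10 averaged under 1 FPKM in both groups, among them Myh11, Des, Cnn1 and Acta2, and smoothelin (Smtn) made up nearly all of its sum of 48.5 to 51.6 FPKM in Limch1_OE, against 52.7 to 53.8 FPKM in Vector. The summed fibroblast, leukocyte and endothelial markers reached at most 2.02, 0.23 and 0.32 FPKM in any Limch1_OE library and 1.62, 0.40 and 0.43 FPKM in any Vector library.

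Across the family, a minor heavy chain and the essential light chain of the motor were lower in Limch1_OE, and its main heavy chains did not pass the test. Limch1 rose to 24.3 ± 1.23 FPKM in Limch1_OE, against 0.167 ± 0.0764 FPKM in Vector (SD, n = 3 each). Myh14 fell by 26.2% and Myl6 by 12.7% as ratios of mean FPKM, Myl12b was 11.9% higher, and Lmo7, Myh9, Myh10, Myl12a and the readthrough locus did not pass the test. All 9 member genes entered the test. Limch1 reached the level for testing through the Limch1_OE libraries alone, into which it was introduced, so its call came with the construct. Of the other 8 members, 3 passed, 1 as higher and 2 as lower. Among all tested genes 34.6% passed, 20.2% higher and 14.4% lower, so 3 in 8 lies near the background. Of the passing genes 58.3% were higher, or 48.1% with median-of-ratios scaling. Without any 1 of the 3 Vector libraries, Limch1 and Myh14 were the members that passed. Limch1, Myh14, Myl6 and Myl12b were also the 4 members whose groups did not overlap, beside 49.1% of all tested genes. The median log2 fold change was 0.02 over the members other than Limch1 and 0.04 over all tested genes. In bulk RNA, fewer cells carrying a transcript and less of it per cell cannot be told apart.

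**Figure D1:**
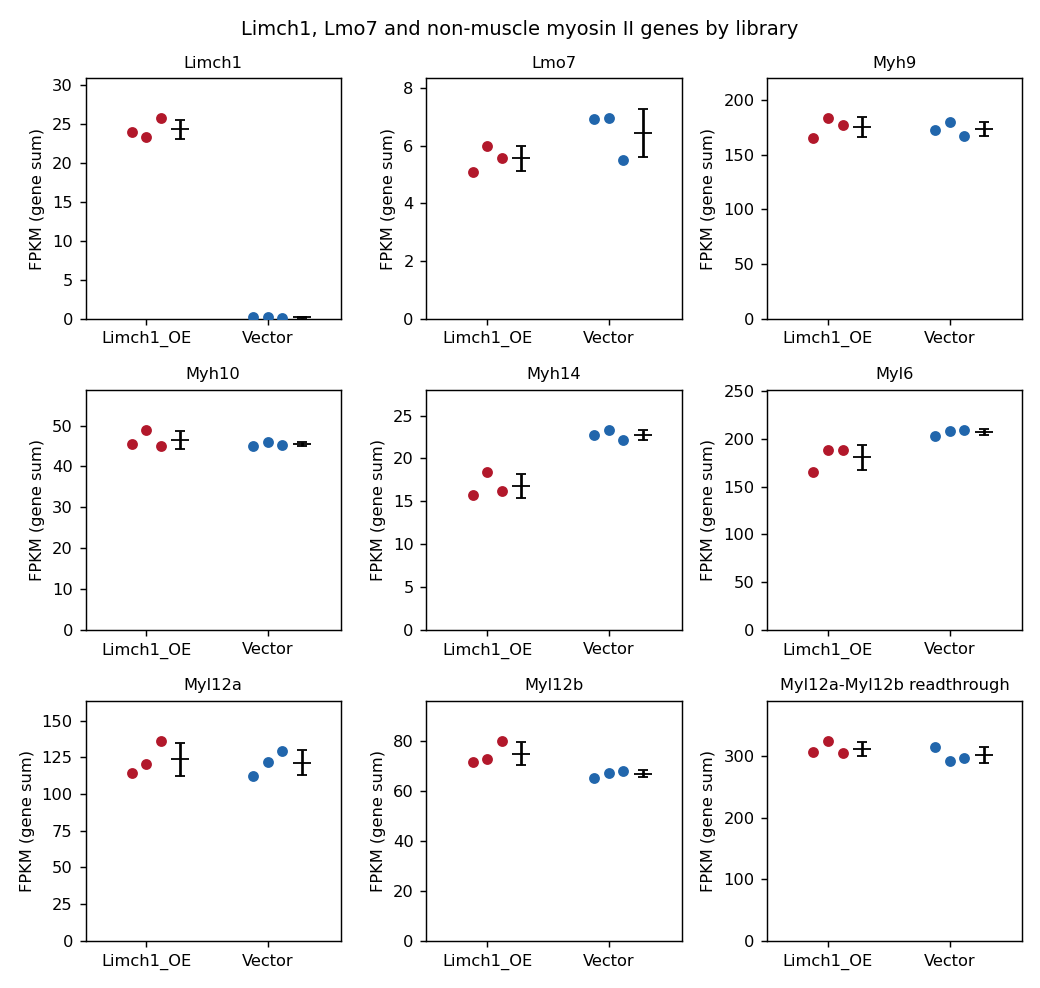
FPKM summed per gene in each library for the 9 member genes, Limch1_OE (red) left of Vector (blue); points are libraries, and the bar beside them is the mean ± SD (n = 3). Limch1, Myh14, Myl6 and Myl12b have groups that do not overlap, whereas the points of the other 5 genes overlap.

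Limch1 (ENSMUSG00000037736, chromosome 5, 66745827 to 67057158, plus strand) was the overexpressed gene and so checks the labels. Its 3 Limch1_OE libraries had 24.0, 23.3 and 25.7 FPKM, and its 3 Vector libraries had 0.25, 0.15 and 0.10 FPKM. Every Limch1_OE library was far above every Vector library. Among the tested genes its log2 fold change of 4.44 (SE 0.08, limma adjusted p = 1.89e-09) was the highest. The ratio of the means was 146, but its lower term comes from a table printed to 2 decimals. At 24.3 ± 1.23 FPKM in Limch1_OE, Limch1 stood above 71.7% of tested genes in that group, below Myh10 and above Myh14.

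Nearly all of this RNA was assigned to the annotated principal transcript Limch1-202, which held 98.7, 98.8 and 99.8% of the Limch1 sum in the Limch1_OE libraries. In each Vector library Limch1-202 was listed at 0. The Vector signal lay on other transcripts, with 0.08, 0.12 and 0.08 FPKM on a transcript that the annotation release used here does not hold (ENSMUST00000238785). That transcript was at 0.01, 0 and 0 FPKM in Limch1_OE. Limch1-202 is 5192 bases long, of which 3171 are coding. FPKM divides by the annotated length, and whether the insert carried the untranslated parts is not given; a coding-only insert would have its level understated by up to 1.64 times. Of the 7 listed Limch1 transcripts, Limch1-202 is the only one that reached 1 FPKM in any library.

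Genes outside the family with the pattern most like Limch1 over the 6 libraries, by Pearson's r of log2(FPKM + 1), were the water channel gene Aqp8 (r = 0.999), the neutrophil chemokine gene Cxcl5 (0.998) and the histone methyltransferase gene Suv39h1 (0.998). Their levels averaged 4.35, 220.4 and 31.5 FPKM in Limch1_OE, against 0.447, 66.1 and 24.3 FPKM in Vector. Over 2 groups of 3 libraries such an r is high for any gene whose groups separate clearly.

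Lmo7 (ENSMUSG00000033060, chromosome 14, 101729957 to 101934710, plus strand), the paralog, stayed below Limch1 in Limch1_OE and above it in Vector. It had 5.10, 5.98 and 5.58 FPKM in Limch1_OE, against 6.92, 6.94 and 5.49 FPKM in Vector. Vector replicate 3 fell among the Limch1_OE libraries, so the groups overlapped. It changed by a log2 of -0.18 (SE 0.10, 95% interval -0.40 to 0.04, limma adjusted p = 0.183), which did not pass. Counting only the protein-coding transcripts, Lmo7 had 3.53, 4.58 and 4.03 FPKM in Limch1_OE, against 5.99, 5.82 and 4.82 FPKM in Vector. These did not overlap, and the fit on coding transcripts alone gave a log2 change of -0.38 (limma adjusted p = 0.0384). The split among Lmo7 transcripts was unstable within groups: Lmo7-209 was listed at 0 in Limch1_OE replicate 1 and in Vector replicate 3, but held 60.1% of the gene in Vector replicate 1. None of the 3 tested Lmo7 transcripts passed by themselves. Limch1-202 and Lmo7-201 aligned over 768 coding bases with 71.1% identity and shared no stretch of 50 bases with each other or with another annotated gene, so reads of that length that match exactly tell them apart.

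The heavy chains set the type of motor. Myh9 (ENSMUSG00000022443, chromosome 15, 77760587 to 77842175, minus strand) encodes the heavy chain of myosin IIA, a form abundant in stress fibres. It had 166, 183 and 177 FPKM in Limch1_OE, against 173, 180.0 and 167 FPKM in Vector. The groups overlapped fully. It changed by a log2 of 0.02 (SE 0.05, limma adjusted p = 0.845), with a 95% interval of -0.10 to 0.14. A single transcript, Myh9-201, held over 99.6% of the gene in every library.

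Myh10 (ENSMUSG00000020900, chromosome 11, 68691559 to 68816632, plus strand) encodes the heavy chain of myosin IIB, which stays bound to actin for longer. Its libraries had 45.5, 49.0 and 45.1 FPKM in Limch1_OE, against 45.1, 46.0 and 45.3 FPKM in Vector. Only Limch1_OE replicate 2 lay apart, and the groups overlapped. It changed by a log2 of 0.03 (SE 0.05, 95% interval -0.08 to 0.14, limma adjusted p = 0.635). Myh10-203 held 98.8 to 99.8% of the gene.

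Myh14 (ENSMUSG00000030739, chromosome 7, 44605803 to 44670843, minus strand), which encodes the heavy chain of myosin IIC, an isoform of epithelia, was the member that fell most. It had 15.7, 18.4 and 16.2 FPKM in Limch1_OE, against 22.7, 23.4 and 22.1 FPKM in Vector. The highest Limch1_OE library lay below the lowest Vector library. It changed by a log2 of -0.42 (SE 0.07, 95% interval -0.57 to -0.27, limma adjusted p = 0.00189), and 12.1% of tested genes had a larger change in either direction. The call held without each library in turn, with adjusted p between 0.00155 and 0.00977. Its main transcript Myh14-201 moved by -0.43 but did not pass as a single transcript (limma adjusted p = 0.103 over 19905 transcripts, or 0.0595 with the most abundant transcript standing for each gene). Genes with the pattern most like Myh14 were Plekhh1, Exoc7, which encodes a subunit of the exocyst, and Mocos, each with r above 0.99 over the 6 libraries.

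Summed, the heavy chains did not differ beyond the spread. Their sum was 227, 251 and 238 FPKM in Limch1_OE, against 241, 249 and 235 FPKM in Vector (exact two-sided permutation p = 0.8, n = 3 each; 0.1 is the smallest that 3 against 3 allow). The groups separated in 2 of the 3 shares, at the smallest p that the design allows. The 3 shares are parts of the same sum, so a lower share of Myh14 comes with a higher share of the rest. The 2 separations are thus not independent, and Myh9 as a gene did not pass. Myh14 made up 6.92, 7.34 and 6.80% of the sum in Limch1_OE and 9.43, 9.37 and 9.42% in Vector, with no overlap (exact permutation p = 0.1). Myh9 made up 73.5 ± 0.69% in Limch1_OE, against 71.8 ± 0.465% in Vector (SD, n = 3 each), also without overlap (exact permutation p = 0.1). Myh10 made up 19.5 ± 0.556% in Limch1_OE, against 18.8 ± 0.444% in Vector (SD, n = 3 each; exact permutation p = 0.2). Such shares do not depend on how libraries are scaled. The coding sequences of the heavy chains are 73.4 to 77.7% identical over their aligned bases, and 1.12% of the 50-base stretches of Myh9-201, 0.943% of those of Myh10-203 and none of those of Myh14-201 occur in another gene.

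**Figure D2:**
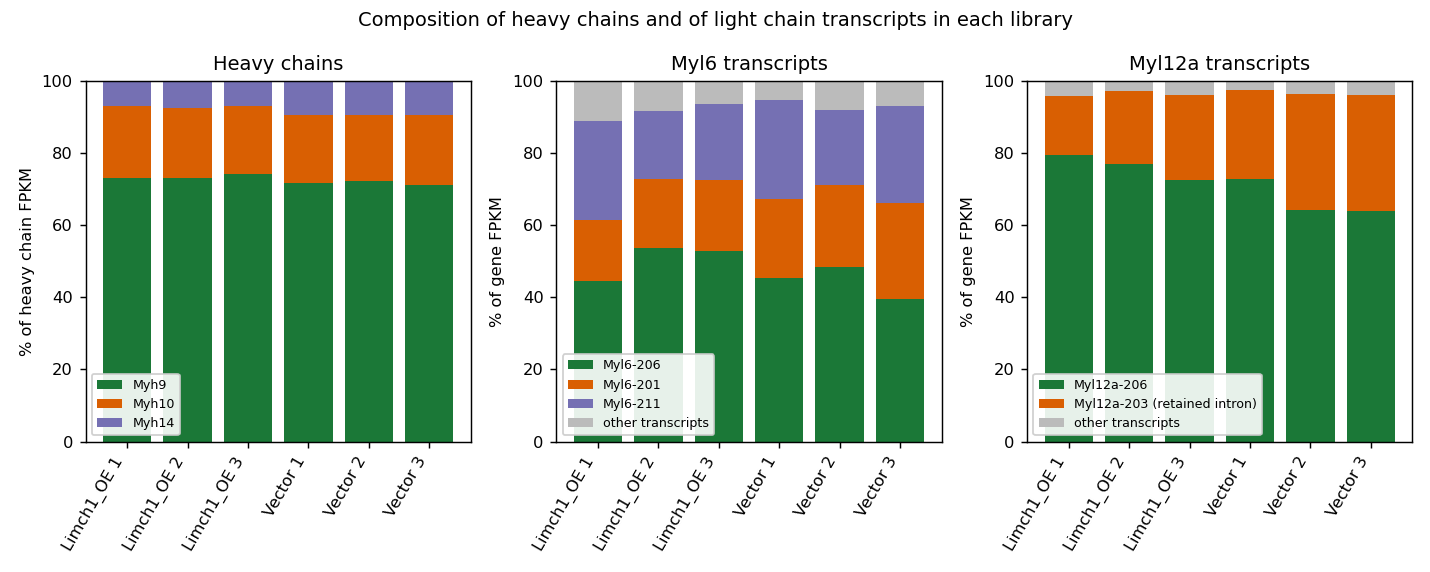
Percent of the summed FPKM of the 3 heavy chains (left), of Myl6 (middle) and of Myl12a (right) held by each gene or transcript, one bar per library, Limch1_OE left of Vector. The Myh14 part is 6.80 to 7.34% in Limch1_OE, against 9.37 to 9.43% in Vector, and the retained-intron part of Myl12a is 16.5 to 23.6% in Limch1_OE, against 24.8 to 32.1% in Vector. The Myl12a-206 part overlaps between groups.

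Myl6 (ENSMUSG00000090841, chromosome 10, 128490860 to 128494145, minus strand) encodes the essential light chain. It had 166, 188.4 and 188.5 FPKM in Limch1_OE, against 203, 209 and 209.7 FPKM in Vector. All 3 Limch1_OE libraries lay below the Vector libraries, and Limch1_OE replicate 1 was the lowest. It changed by a log2 of -0.20 (SE 0.06, 95% interval -0.33 to -0.07, limma adjusted p = 0.0293). The call ended without any 1 of the 3 Vector libraries (adjusted p between 0.0643 and 0.0822), with quantile normalization (0.127), with no filter on low values (0.0882) and with the most abundant transcript standing for the gene (0.941). Gtf2f2, Rbm22 and Creb3 had the most similar patterns, with r above 0.99 over the 6 libraries.

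The Myl6 RNA was divided among 3 main coding transcripts that differ in how the coding sequence ends, and none of the 3 passed by itself. Alternative use of a 45-base exon (chr10:128491720-128491764) gives the form called non-muscle when it is included, as in Myl6-206, and the form called smooth-muscle when it is skipped, as in Myl6-201. Myl6-211 uses another exon of 58 bases (chr10:128491290-128491347) instead. The coding ends are shown because they are what separates these transcripts. They run from the last 30 coding bases shared by all 3, in lower case, to the last base before the stop codon, with the bases after the shared part in capitals, 5′ to 3′, mm10 minus strand, from the GENCODE M21 transcripts:
Myl6-206: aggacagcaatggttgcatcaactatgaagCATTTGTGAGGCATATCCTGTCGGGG
Myl6-201: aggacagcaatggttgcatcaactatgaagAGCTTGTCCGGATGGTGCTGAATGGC
Myl6-211: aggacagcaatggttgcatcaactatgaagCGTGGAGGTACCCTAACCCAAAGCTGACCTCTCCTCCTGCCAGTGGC
Of the 453 coding bases of Myl6-206 and of Myl6-201, the last 26 lie after the shared part.

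Myl6-206, the most abundant of them, had 73.8, 101 and 99.7 FPKM in Limch1_OE, against 92.5, 101 and 83.1 FPKM in Vector, with overlapping groups (log2 fold change -0.02, limma adjusted p = 0.952). Myl6-201 had 27.8, 36.1 and 37.0 FPKM in Limch1_OE, against 44.5, 47.3 and 55.5 FPKM in Vector. Its groups did not overlap, yet the change of -0.54 (SE 0.14) did not pass among transcripts (limma adjusted p = 0.0813). Myl6-211 changed by -0.35 and did not pass either (limma adjusted p = 0.194). Of Myl6-206 and Myl6-201 together, Myl6-206 made up 72.7, 73.7 and 72.9% in Limch1_OE, against 67.5, 68.1 and 59.9% in Vector, a comparison chosen after these values were seen (exact permutation p = 0.1). As a share of all Myl6 transcripts, Myl6-206 overlapped between groups (50.4 ± 5.07% in Limch1_OE, against 44.5 ± 4.51% in Vector, SD, n = 3 each; exact permutation p = 0.3). Between 46.5 and 53.2% of the 50-base stretches of these transcripts also occur in another gene. Those genes are 5 processed pseudogenes, none of which exceeded 2.58 FPKM in any library.

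The regulatory light chain genes Myl12a (ENSMUSG00000024048, 70993656 to 71002878) and Myl12b (ENSMUSG00000034868, 70973133 to 70990890) lie next to each other on the minus strand of chromosome 17. Their proteins carry the sites that ROCK and myosin light chain kinase phosphorylate. The readthrough locus (ENSMUSG00000117098, 70974119 to 71002208) joins them: its transcript Myl12b-206 takes its first 3 exons from the Myl12a gene and its last exon (70974323 to 70974496) from Myl12b. The last 120 coding bases of Myl12a-206 (chr17:70994615-70994734) and of Myl12b-201 (chr17:70974327-70974446) are shown because they show how alike these genes are. Both read 5′ to 3′ on the mm10 minus strand and come from the GENCODE M21 transcripts, with capitals where they differ:
Myl12a-206: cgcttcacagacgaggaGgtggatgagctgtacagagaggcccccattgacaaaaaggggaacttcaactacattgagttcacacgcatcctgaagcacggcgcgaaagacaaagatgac
Myl12b-201: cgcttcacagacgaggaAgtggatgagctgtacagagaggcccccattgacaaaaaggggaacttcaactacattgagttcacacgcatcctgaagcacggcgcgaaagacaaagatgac
Only 1 of these 120 bases differs, and the readthrough transcript has exactly the Myl12b-201 sequence there. Over all 516 coding bases Myl12a-206 and Myl12b-201 differ at 18 positions, and the readthrough transcript differs from Myl12a-206 at 1 position. Of the 50-base stretches, 100% of those of Myl12b-206 occur in another gene, against 29.6% for Myl12a-206 and 33.0% for Myl12b-201. How the authors' pipeline divided such shared reads is not given, so the values of the 3 loci are uncertain one by one. Their summed FPKM depends on that division as well, since FPKM is per length and a shared read weighs more on Myl12b-206 (636 bases) than on Myl12a-206 (1937 bases) or Myl12b-201 (2143 bases).

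The groups overlapped in the sum of the 3 loci, which was 493, 519 and 522 FPKM in Limch1_OE, against 494, 482 and 496 FPKM in Vector (exact permutation p = 0.3, n = 3 each). Limch1_OE replicate 1 lay among the Vector libraries. The difference of 20.8 FPKM became 7.47 FPKM with median-of-ratios scaling (exact permutation p = 0.5). It was 30.3 FPKM with the most abundant transcripts and 30.5 FPKM with coding transcripts alone, and exact permutation p was 0.1 for both, the smallest that 3 libraries against 3 allow. The readthrough locus held 61.2 ± 2.32% of the sum in Limch1_OE, against 61.6 ± 2.10% of it in Vector (SD, n = 3 each).

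Within the sum, Myl12b had 71.7, 73.0 and 80.1 FPKM in Limch1_OE, against 65.4, 67.4 and 68.2 FPKM in Vector. The groups did not overlap. Its log2 fold change of 0.16 (SE 0.05, limma adjusted p = 0.0464) was just inside the threshold. The call held without Limch1_OE replicate 1 and ended without any 1 of the other 5 libraries (adjusted p between 0.0778 and 0.146) and with median-of-ratios scaling (0.122). Mphosph6, Fubp3 and the cell-cycle kinase gene Cdk4 had the most similar patterns, with r of 0.987 to 0.991 over the 6 libraries.

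Myl12a had 115, 120.3 and 136 FPKM in Limch1_OE, against 112, 122 and 129 FPKM in Vector. The groups overlapped, and its log2 change was 0.03 (SE 0.07, 95% interval -0.14 to 0.20, limma adjusted p = 0.805). Within this sum the transcripts Myl12a-206 and Myl12a-203 had changes of opposite sign, neither of which passed. The principal coding transcript Myl12a-206 had 90.9, 92.4 and 98.9 FPKM in Limch1_OE, against 81.7, 78.5 and 82.7 FPKM in Vector, without overlap (log2 fold change 0.21, SE 0.05, limma adjusted p = 0.0568 among transcripts). The retained-intron transcript Myl12a-203, which has no coding sequence, had 18.9, 24.5 and 32.2 FPKM in Limch1_OE, against 27.8, 39.2 and 41.5 FPKM in Vector (log2 fold change -0.52, SE 0.24, limma adjusted p = 0.253). As a share of the gene, Myl12a-203 held 16.5, 20.3 and 23.6% in Limch1_OE, against 24.8, 32.1 and 32.1% in Vector (exact permutation p = 0.1). The share of Myl12a-206 overlapped between groups, at 79.4, 76.9 and 72.6% in Limch1_OE, against 72.7, 64.3 and 63.9% in Vector (exact permutation p = 0.2). Neither share was a planned comparison. Fitted on coding transcripts alone, Myl12a was higher by 0.21 (log2; limma adjusted p = 0.0201). The readthrough locus had 307, 325 and 305 FPKM in Limch1_OE, against 316, 292 and 298 FPKM in Vector, with overlapping groups and a log2 fold change of 0.05 (SE 0.05, 95% interval -0.07 to 0.16, limma adjusted p = 0.493).

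**Figure D3:**
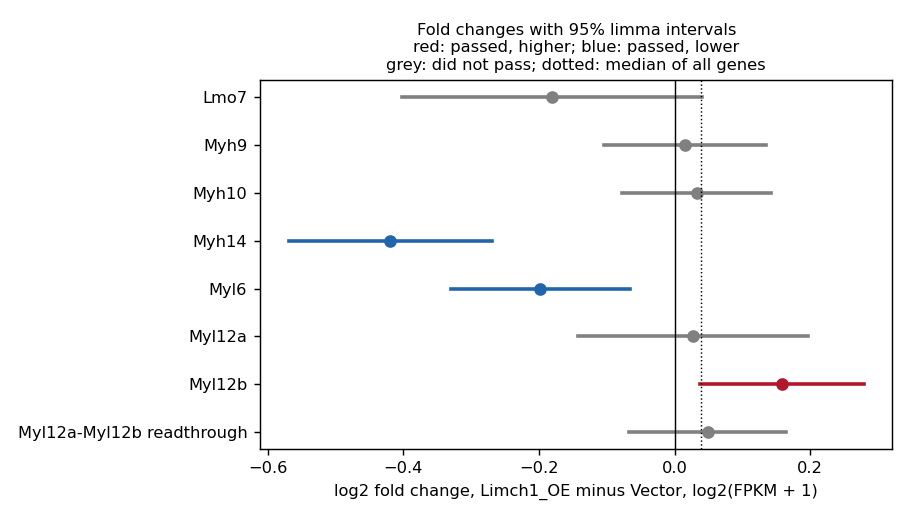
Log2 fold changes of the member genes other than Limch1, Limch1_OE minus Vector, with 95% limma intervals (horizontal axis, log2(FPKM + 1) scale); the dotted line is the median of all tested genes. The intervals of Myh14, Myl6 and Myl12b exclude 0, and those of Lmo7, Myh9, Myh10, Myl12a and the readthrough locus include it.

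The readthrough locus, Myl12a and Myl12b averaged 313, 124 and 75.0 FPKM in Limch1_OE and are left out of the order of levels, since how shared reads were divided among them is not known. In Limch1_OE the other members ranked from Myl6 (181 FPKM) through Myh9 (175), Myh10 (46.5), Limch1 (24.3) and Myh14 (16.8) to Lmo7 (5.55). In that order the libraries of Myl6 and Myh9 overlapped, and no other neighbours did. In Vector the order was the same except that Limch1 came last, and no neighbours overlapped. Among single transcripts, 24 of the 72 reached the level for testing, and 1 of them, Limch1-202, passed as higher. Of the 19905 tested transcripts 7.24% passed, 3.12% as higher and 4.12% as lower. Simulated log2 changes of 1, on the log2(FPKM + 1) scale, were called for 48% of 100 changed transcripts and for 97% of 100 changed genes. Simulated log2 changes of 0.5 were called for 11% of 100 changed transcripts and for 82% of 100 changed genes. At both sizes transcript tests missed more changes than gene tests, so a transcript that did not pass may still have changed. The changed genes and transcripts were drawn only from those averaging well above the 1 FPKM for testing, so recovery near that level was not simulated. A smaller part of the genes was also changed in the simulation than passed in these data, so these percentages need not hold here.

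Of the tested regulators of the motor, 11 were higher, 5 were lower and 27 did not pass (43 tested of 51 listed). Their median log2 fold change was 0.02, beside 0.04 over all tested genes, and the share passing was again near the background of 34.6%. With median-of-ratios scaling 11 were higher and 8 lower, and with the most abundant transcript standing for the gene 5 were higher and 5 lower. The 8 listed regulators that were not tested averaged under 1 FPKM in both groups, among them Mylk, Mylk2, Dapk1 and the myosin chaperone gene Unc45b.

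Rhoc, a GTPase that activates ROCK and is known for its part in metastasis, fell most. It had 171, 199 and 202 FPKM in Limch1_OE, against 290.0, 299 and 316 FPKM in Vector. All Limch1_OE libraries were below all Vector libraries (log2 fold change -0.66, SE 0.07, limma adjusted p = 1.98e-04). Rhob, a related GTPase of endosomes, averaged 23.9 ± 1.09 FPKM in Limch1_OE, against 31.9 ± 1.27 FPKM in Vector (SD, n = 3 each), a log2 change of -0.40 (adjusted p = 8.55e-04, limma). Calm2, which encodes calmodulin, the activator of myosin light chain kinase, changed by 0.05 and did not pass (limma adjusted p = 0.472). Cdc42bpb, a kinase that phosphorylates the regulatory light chain, was lower by a smaller amount (-0.22, limma adjusted p = 0.00644). Srf, a transcription factor that controls many cytoskeletal genes, fell by 0.25 (log2; limma adjusted p = 0.00833).

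S100a4, whose protein binds the tail of myosin IIA and promotes disassembly of its filaments, had 21.0, 22.2 and 21.2 FPKM in Limch1_OE, against 16.7, 14.3 and 16.4 FPKM in Vector. It rose by 0.42 (log2; SE 0.07, limma adjusted p = 0.00201), with no overlap. Rnd3, which inhibits ROCK1, averaged 20.9 ± 1.83 FPKM in Limch1_OE, against 15.4 ± 0.572 FPKM in Vector (SD, n = 3 each), a log2 rise of 0.41 (limma adjusted p = 0.00285). Ppp1cb, the catalytic subunit of myosin phosphatase, averaged 54.0 ± 4.31 FPKM in Limch1_OE, against 42.7 ± 1.11 FPKM in Vector (SD, n = 3 each), a log2 rise of 0.33 (limma adjusted p = 0.00433). Stk38, which encodes the kinase NDR1, rose by 0.37 (log2; limma adjusted p = 0.0014), but with coding transcripts alone the change was 0.12 (limma adjusted p = 0.135).

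Rhoa, Rock1, Rock2, Ppp1r12a, Ppp1r12b and Mylk were chosen after their values were seen, because they are the core of the pathway. Rhoa was at 292 ± 9.38 FPKM in Limch1_OE, against 251 ± 4.84 FPKM in Vector (SD, n = 3 each), and rose by 0.22 (log2; limma adjusted p = 0.00732). The kinase gene Rock2 rose by 0.27 (log2; limma adjusted p = 0.0201), a call that ended without Vector replicate 1 (0.0652) or Vector replicate 2 (0.0574), whereas Rock1 changed by 0.11 and did not pass (0.386). Of the targeting subunits of myosin phosphatase, Ppp1r12b rose by 0.36 (log2; limma adjusted p = 0.0051) and Ppp1r12a changed by -0.20 without passing (0.0570; 0.0287 with median-of-ratios scaling, and 0.0133 without Limch1_OE replicate 1). Mylk, the gene for smooth-muscle myosin light chain kinase, averaged 0.04 FPKM in Limch1_OE, against 0.0333 FPKM in Vector, and was not tested. The guanine exchange factor gene Arhgef2 and the cytokinesis gene Anln were abundant and did not pass (limma adjusted p = 0.872 and 0.772).

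**Figure D4:**
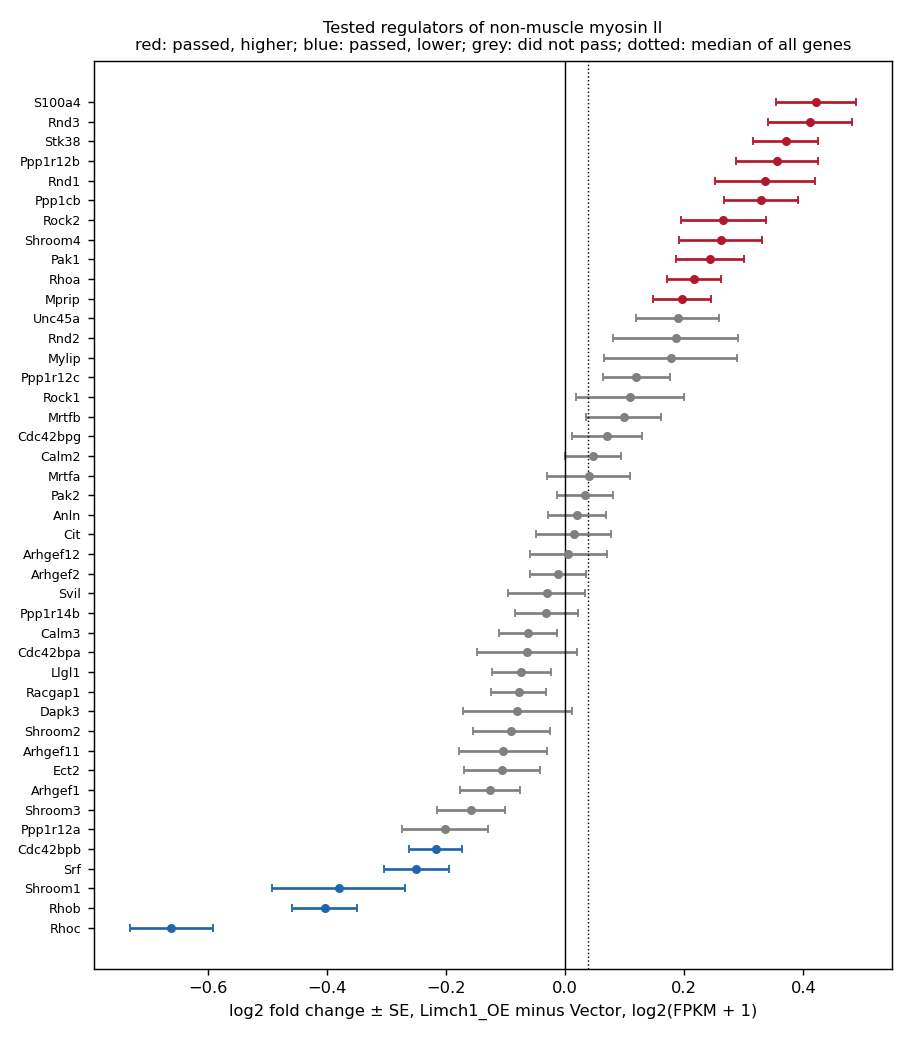
Log2 fold changes ± SE of the 43 tested regulators of non-muscle myosin II, Limch1_OE minus Vector (horizontal axis, log2(FPKM + 1) scale), sorted from highest to lowest; the dotted line is the median of all tested genes. The 11 red genes passed as higher, led by S100a4 (0.42), the 5 blue genes passed as lower, ending with Rhoc (-0.66), and the 27 grey genes did not pass.

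Other myosins were compared to see whether the family's changes were shared. No muscle heavy chain reached 1 FPKM: Myh11, Myh7 and Myh7b averaged 0.01, 0.00667 and 0.47 FPKM in Limch1_OE, against 0, 0 and 0.38 FPKM in Vector. Myo18a, a relative of class II without known motor activity, did not pass (-0.07, limma adjusted p = 0.352). Myl6b, an essential light chain related to Myl6, had 8.0, 10.8 and 8.72 FPKM in Limch1_OE, against 4.94, 5.26 and 5.06 FPKM in Vector. It rose by 0.73 (log2; SE 0.10, limma adjusted p = 9.20e-04), in the opposite direction to Myl6, but at a level of 9.18 FPKM in Limch1_OE, against 181 FPKM for Myl6 in the same group. The fast-muscle regulatory light chain gene Mylpf averaged 1.46 ± 0.448 FPKM in Limch1_OE, against 0.747 ± 0.417 FPKM in Vector (SD, n = 3 each), and did not pass (limma adjusted p = 0.0865), although it did without Limch1_OE replicate 2 (0.0492) and with the replicate number as a block (0.0147).

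Of 11 tested unconventional myosins, 5 were lower, 1 was higher and 5 did not pass, beside 14.4% lower and 20.2% higher among all tested genes. Myo1d, a class I membrane motor, averaged 18.2 ± 0.454 FPKM in Limch1_OE, against 26.9 ± 0.274 FPKM in Vector (SD, n = 3 each), a log2 change of -0.54 (limma adjusted p = 7.11e-05). Myo5b, a motor of recycling endosomes, changed by -0.49, Myo1e by -0.25 and Myo9b, a motor that also inactivates RHOA, by -0.19 (limma adjusted p = 0.00517, 0.0147 and 0.0187). The Myo9b call ended without Vector replicate 1 (0.0559) or Vector replicate 2 (0.0727), and its most abundant transcript stood at 0.05. With the most abundant transcript the Myo1e call ended too (0.0536). Myo7a rose by 0.47 (log2) at a low level (2.02 FPKM in Limch1_OE, against 1.19 FPKM in Vector; limma adjusted p = 0.0107, or 0.0512 with no filter). Myo1c, Myo5a and Myo6 did not pass (limma adjusted p = 0.269, 0.257 and 0.445); with the most abundant transcript, Myo1c was lower by 0.91 (log2; limma adjusted p = 0.0217).

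The actin that the motor pulls on did not pass either. Actb had 901, 1058 and 969 FPKM in Limch1_OE, against 1064, 1100.3 and 1144 FPKM in Vector. Although no library overlapped, the change of -0.18 (SE 0.07) gave a limma adjusted p of 0.0755, which became 0.0379 with median-of-ratios scaling, 0.0107 with quantile normalization and 0.0407 without Limch1_OE replicate 2. Actg1 averaged 1155 ± 60.1 FPKM in Limch1_OE, against 1229.9 ± 56.0 FPKM in Vector (SD, n = 3 each; change -0.09, limma adjusted p = 0.293), and passed only with quantile normalization (0.0207). Among the MICAL family genes, whose proteins share the calponin-homology and LIM domains of LIMCH1, Mical2 rose by 0.42 (log2) and Micall2 fell by 0.27 (log2; limma adjusted p = 0.00609 and 0.0081), while Micall1 and Mical3 did not pass. The Micall2 call ended with the most abundant transcript (0.118).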

How the data were processed

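Total RNA of 6 libraries was sequenced, and groups were read from the sample titles. The deposited table holds FPKM for 77865 transcripts. Per the submitters' processing notes the tools were StringTie 2.2.1, featureCounts 2.0.1, fastp 0.23.2 and STAR 2.7.10, on mm10. The sources used here do not give which of them made the values, the annotation release, or how strand and multiply matching reads were handled. Whole-read steps were sought in the low values over a limited range of step sizes. For the best step, at most 28.6% of these values, multiplied by transcript length, lay within 0.1 step of a whole number of steps. Chance gives 20% for a single fixed step and more for the best of many, so the search cannot decide whether steps exist. Depth is thus unknown, no count test was run, and precision rests on the SD over 3 libraries.

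FPKM were summed per gene, and GENCODE M21 named 26033 of 26094 identifiers. Genes and transcripts were fitted with lmFit and eBayes with an intensity trend (limma 3.58.1, R 4.3.3), a step tested on simulated data, in which 4.79% of called genes and 10.6% of called transcripts were false. Shares and sums were compared by exact two-sided permutation of group means (scipy 1.17.1). Sequences shared with other genes were counted as exact 50-base matches to M21 transcripts. Members and lists were chosen with earlier results of these data known. Some genes of the lists are not reported here. Genes named by rule were all members, and up to 4 per list and direction with the smallest adjusted p, averaging at least 1 FPKM. Added to these were the 3 most abundant per list that did not pass, and the 3 genes most like each member that passed. Transcripts were named where they held at least 5% of their gene. Rhoa, Rock1, Rock2, Ppp1r12a, Ppp1r12b and Mylk were named after their values were seen. Some untested genes at low levels were named as examples. The alternatives were another pseudocount (0.1), no filter, other scalings, other transcript choices, no intensity trend, a replicate block and leaving out each library.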

Additional observations from a re-analysis of the deposited data

How the results depend on the processing

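Limch1 and Myh14 kept their calls with every alternative tried, except that Myh14 stood at -0.43 (limma adjusted p = 0.0595) with the most abundant transcript. Of the 4 member calls, those of Limch1 and Myh14 were left with no filter on low values and with no intensity trend. With the most abundant transcript Limch1 alone kept its call and Myl12a gained one, which makes 2 members, and 1996 genes in all and 10 regulators passed. Myl6 stood at -0.20 with no filter and with no trend, at -0.11 with quantile normalization and at -0.0196 with the most abundant transcript, none of which passed. Myl12b, which lost its call too, stood at 0.16 with no filter and with no trend, at 0.12 with median-of-ratios scaling, and at 0.14 with the most abundant transcript or coding transcripts only. Coding transcripts only made Lmo7 (-0.38) and Myl12a (0.21) pass, and the most abundant transcript did so for Myl12a (0.21). Median-of-ratios scaling turned the sign of Myh9 (-0.0229), Myh10 (-0.0050), Myl12a (-0.0110), Anln (-0.0175) and Krt19 (-0.0361), none of which passed, and reduced the regulatory light chain difference to 7.47 FPKM. It left 48.1% of called genes higher, against 58.3% in the reported fit. Quantile normalization turned Arhgef2 (0.0221) and Micall1 (0.0167). The most abundant transcript turned Arhgef2 (0.26), Myo18a (0.0452), Myo9b (0.0525), Myo5a (-0.0527) and Mical3 (0.72). The cause of these shifts was not tested.

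Leaving out each library in turn gave 2 to 4 member calls. The log2 fold change ranged from -0.0172 to 0.0549 for Myh9, -0.0046 to 0.0543 for Myh10, -0.23 to -0.14 for Myl6, -0.0442 to 0.0801 for Myl12a and 0.11 to 0.19 for Myl12b. Among genes that are no members it ranged from -0.0407 to 0.0192 for Arhgef2, -0.0124 to 0.0591 for Anln, -0.0345 to 0.0103 for Micall1, -0.11 to 0.0397 for Mical3 and -0.0528 to 0.0859 for Krt19. The deviations of same-numbered libraries correlated at -0.00172, 0.0456 and 0.0592. Replicates 2 and 3 correlated best with their own number, with other numbers reaching at most 0.0271 and -0.0221. Replicate 1 did not (other numbers up to 0.00129). As these correlations were all weak and replicate 1 went the other way, the numbers were not taken to pair the libraries. With the replicate block, 3808 genes, 4 members and 16 regulators passed, and among the named genes the block changed the call of Mylpf alone, which passed (0.0147). With unknown depth, how far counting error limits the low values, such as Limch1 in Vector, cannot be given.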
